A study of Homo sapiens with 6 samples.

Results

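The genes described here are the cytochrome P450 (CYP) genes of the human liver line HepG2 and the families that work beside them on drugs, steroids and other small molecules. They were chosen by name. A locus belonged to the set if its gene symbol began with CYP, UGT, SULT, GST, NAT8, EPHX, CES, ADH, ALDH, AKR, FMO, ABCB, ABCC or ABCG, each followed by its member number or class letter. Of 55 symbols that matched, 3 were left out by the rule (CYP51A1, AKR1C1 and ALDH18A1), which left 52 of the 6357 loci, 0.818% of the table. No FMO gene was listed by name. The 52 loci were 11 CYP, 3 UGT, 4 SULT, 6 GST, 8 ALDH, 4 AKR, 2 CES, 3 ABCB and 7 ABCC loci, and 1 locus each of ADH, ABCG, NAT8 and EPHX. None was at 0 FPKM in any library, and all 52 had a mean of at least 1 FPKM over the 6 libraries.

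A P450 enzyme holds a heme and inserts an oxygen atom into its substrate with electrons that it takes mainly from P450 oxidoreductase. Hydrolases, aldehyde dehydrogenases and aldo-keto reductases then act on esters, epoxides and carbonyl groups, and transferases join the product to glucuronic acid (UGT), sulfate (SULT), glutathione (GST) or an acetyl group. ABC transporters of the B, C and G classes carry drugs, conjugates and lipids across membranes. Hepatocytes express many of these genes strongly, and HepG2 cells, which come from a human liver tumour, are known to hold many of them at low levels.

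RNA was taken from HepG2 cells with an intact FN3K gene (WT, 3 libraries) and from HepG2 cells in which FN3K had been knocked out by CRISPR (FN3K KO, 3 libraries), all grown on plates in Eagle's Minimum Essential Media with 10% Fetal Bovine Serum. FN3K is a kinase that phosphorylates sugars bound to lysine in glycated proteins, which lets them come off. The number of KO clones behind the 3 KO libraries is not given in the sources used here, so p-values measure only the spread between these plates. FN3K itself stood at 27.7, 21.9 and 23.2 FPKM in WT and at 0.782, 1.03 and 0.704 FPKM in KO, with no overlap (two-sided exact permutation p = 0.10, the smallest that 3 against 3 allows). Of the hepatocyte or hepatoma markers, 9 of 14 were listed by name. Their summed level lay between 11296 and 11445 FPKM in WT and between 17834 and 18981 FPKM in KO. AFP weighs heavily in that sum, with a mean of 1537 FPKM in WT and 6206 FPKM in KO. AFP, TTR and APOA1 were among the 6 of these 9 called higher in KO (limma adjusted p under 0.05), beside 21.2% of all loci. None was called lower, beside 36.5% of all loci, and none at an unadjusted p under 0.05 or in the linear model either. Of the 3 not called, AHSG had all KO libraries below all WT libraries (log2 fold change −0.15). SERPINA1 had all of them above (0.08), and TF overlapped (−0.03). ALB was not listed by name. None of the leukocyte, fibroblast or endothelial markers was listed by name, and of the bile duct markers KRT19 was higher and EPCAM lower in KO. What part these marker shifts have in the results below was not tested, and in bulk RNA fewer cells of a type cannot be told apart from less RNA per cell.

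Most of the drug metabolism genes were more abundant in FN3K KO cells. On the log2(FPKM + 1) scale and with Benjamini-Hochberg adjustment over all loci (limma, adjusted p under 0.05), 30 of the 52 genes (57.7%) were higher in KO and 8 (15.4%) were lower. Of all 6357 loci, 21.2% were called higher and 36.5% lower. The median log2 fold change was 0.40 for the 52 genes and −0.14 for all loci. With a stricter rule, which asks for a log2 fold change larger than 1 in either direction and a p under 0.05 before adjustment, 13 of the genes (25.0%) were higher and 1 (1.92%) was lower, beside 4.31% and 3.32% of all loci. The 13 include 5 genes with a mean under 1 FPKM in WT (CYP17A1, CYP24A1, CYP2J2, CYP4F2 and NAT8). The filter on loci is not given, so these 5 may be in the table only through their KO levels. In 29 genes (55.8%) all 3 KO libraries lay above all 3 WT libraries and in 8 (15.4%) all lay below, where all loci gave 23.6% and 39.8%. An ordinary linear model with a term for library level called 20 genes higher and 1 lower, and 606 loci higher and 521 lower over the whole table. The count of lower genes rested in part on single libraries, since it was 4 without WT replicate 3 and 5 without FN3K KO replicate 3.

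**Figure D1:**
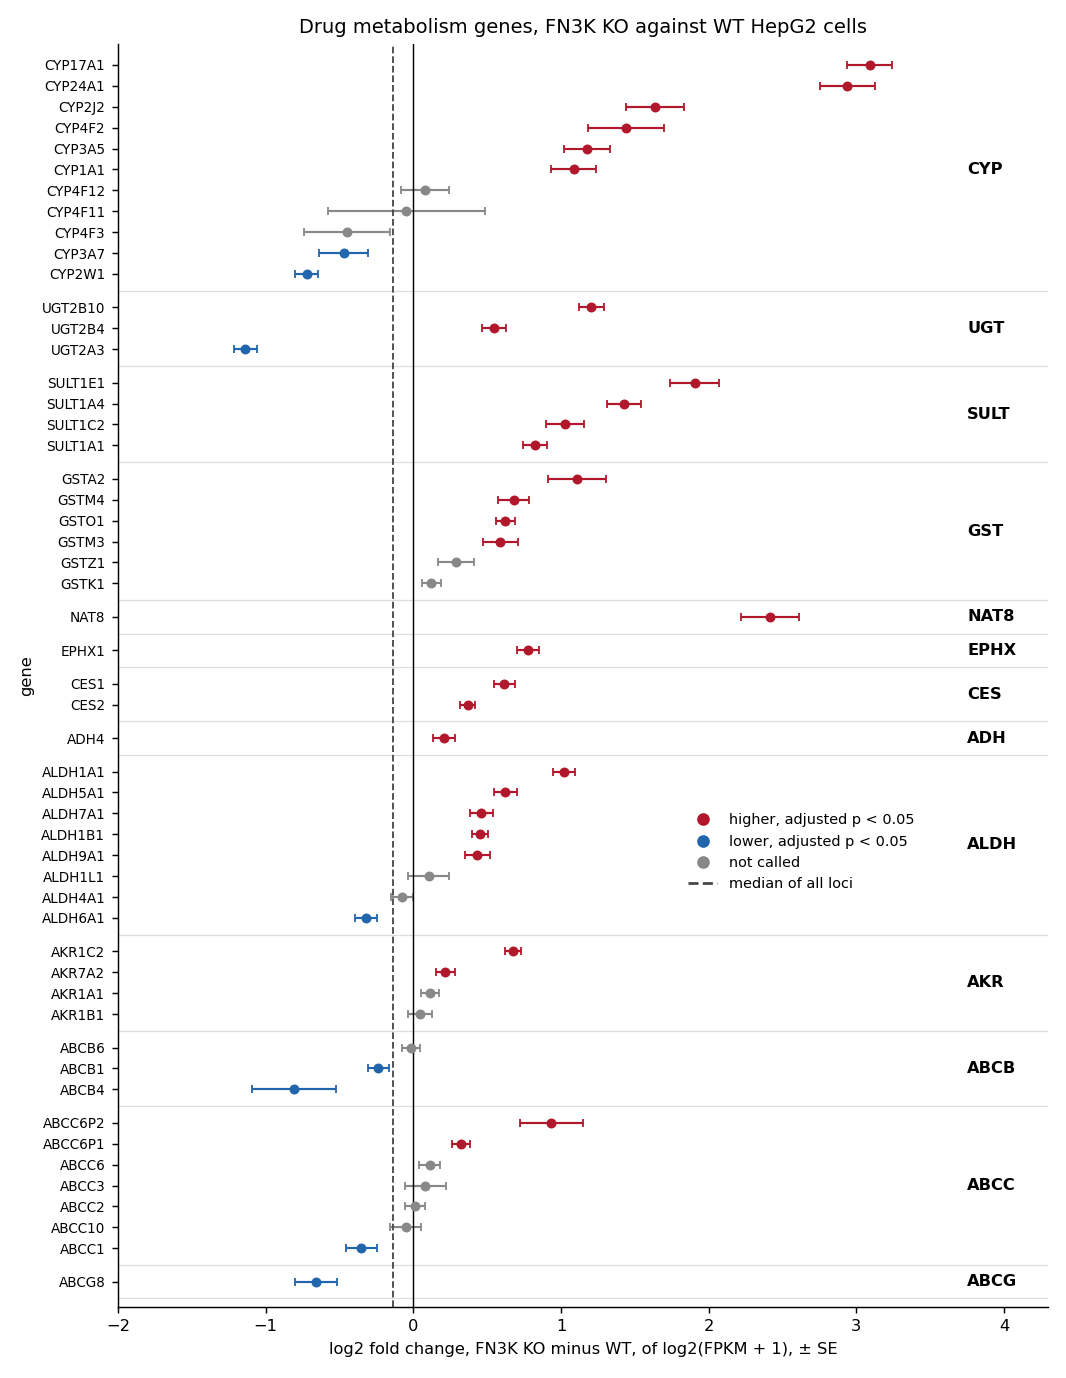
Log2 fold changes (FN3K KO minus WT, of log2(FPKM + 1), x axis) of the 52 drug metabolism genes (y axis), grouped by family, with bars of 1 SE from limma and the dashed line at the median of all loci, −0.14. The 4 SULT genes, NAT8, EPHX1 and both CES genes lie to the right of 0, while the ABC transporter genes lie around 0 or to its left apart from the pseudogenes ABCC6P1 and ABCC6P2.

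The counts of calls differed between enzymes and transporters. Among the 41 genes that encode enzymes, 28 (68.3%) were higher, 4 (9.76%) lower and 9 passed neither way, with a median log2 fold change of 0.59. Among the 11 ABC transporter loci, 2 (18.2%) were higher, 4 (36.4%) lower and 5 passed neither way, with a median of −0.02. Of all loci, 21.2% were called higher and 36.5% lower. Both higher ABC loci were pseudogenes, so that 0 of the 9 protein-coding transporter genes were called higher by limma, also at an unadjusted p under 0.05 and in the linear model with a library term, and 1 (ABCC6) with median centring. The difference between enzymes and transporters was not tested. By level, of 28 genes with a mean of at least 10 FPKM, 16 (57.1%) were higher and 5 (17.9%) lower. Of 24 with a lower mean, 14 (58.3%) were higher and 3 (12.5%) lower. The stricter rule, which asks for a log2 fold change over 1, picked 3 (10.7%) of the former upward and 10 (41.7%) of the latter, beside 4.31% of all loci. Reads can be split between related transcripts, so the transcript of each gene was compared with all others in windows of 75 bases. Of 39 genes that shared at most 10% of windows with other genes, 21 (53.8%) were higher and 7 (17.9%) lower. Of 12 that shared more, 8 (66.7%) were higher and 1 (8.33%) lower.

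Of the 11 CYP genes, 6 (54.5%) were higher in KO, 2 (18.2%) were lower and 3 passed neither way, beside 21.2% and 36.5% of all loci. The 6 higher genes also passed the stricter rule, as did 4.31% of all loci. They came from several branches of the family: steroid hormone synthesis (CYP17A1), vitamin D inactivation (CYP24A1), fatty acid and eicosanoid oxidation (CYP2J2 and CYP4F2) and xenobiotic metabolism (CYP3A5 and CYP1A1). CYP17A1, CYP24A1, CYP2J2 and CYP4F2 had WT means under 1 FPKM and may be in the table only through their KO levels. Genes listed that way could only come out higher, so the CYP count and its spread over branches may rest partly on the listing. CYP3A5 and CYP1A1 were above 1 FPKM in every WT library.

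CYP17A1, a hydroxylase and lyase on the route to cortisol and androgens, lies on chromosome 10 from 102830531 to 102837533 (GRCh38). CYP17A1 stood at 0.470, 0.618 and 0.489 FPKM in WT and at 11.5, 11.4 and 13.1 FPKM in KO. The WT libraries were all under 1 FPKM and the KO libraries all above 11 FPKM. The log2 fold change was 3.09 ± 0.15 (SE, n = 3 per group; limma BH-adjusted p = 1.1e-06). Since 1 FPKM is added before the logarithm, this understates the change of a gene so low in WT, and with 0.1 FPKM added CYP17A1 gave 4.28.

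CYP24A1, which inactivates vitamin D hormone in mitochondria (chromosome 20 from 54153449 to 54173973), stood at 0.662, 1.18 and 1.07 FPKM in WT. CYP24A1 in KO read 11.6, 17.9 and 13.2 FPKM, with replicate 2 the highest. The log2 fold change of CYP24A1 was 2.94 ± 0.19 (limma BH-adjusted p = 4.3e-06). CYP2J2, an epoxygenase of arachidonic acid on chromosome 1, read 1.14, 0.882 and 0.843 FPKM in WT and 5.44, 4.72 and 5.03 FPKM in KO, again without overlap. Its log2 fold change was 1.63 ± 0.20 (limma BH-adjusted p = 0.00017). Neither gene lost its call under any of the 13 alternative settings.

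CYP4F2, a fatty acid and vitamin E hydroxylase, rose from a mean of 0.631 to 3.41 FPKM, with a log2 fold change of 1.44 ± 0.26. CYP1A1, an oxidase of polycyclic aromatic compounds that is known as a target of the aryl hydrocarbon receptor, rose from 2.69 to 6.82 FPKM (log2 fold change 1.09 ± 0.15). The remaining CYP4F genes did not pass the test. CYP4F12 had 8.49 ± 0.842 FPKM in WT and 9.17 ± 2.26 FPKM in KO (SD, n = 3). CYP4F3 had 4.41 ± 0.990 and 3.12 ± 1.48 FPKM, and its KO replicate 3 was the lowest of all 6 libraries at 1.42 FPKM. CYP4F11 was the most variable CYP gene, with 0.208, 1.78 and 1.88 FPKM in WT and 2.88, 0.630 and 0.385 FPKM in KO. Nothing can be read from a spread of that size within a group.

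**Figure D2:**
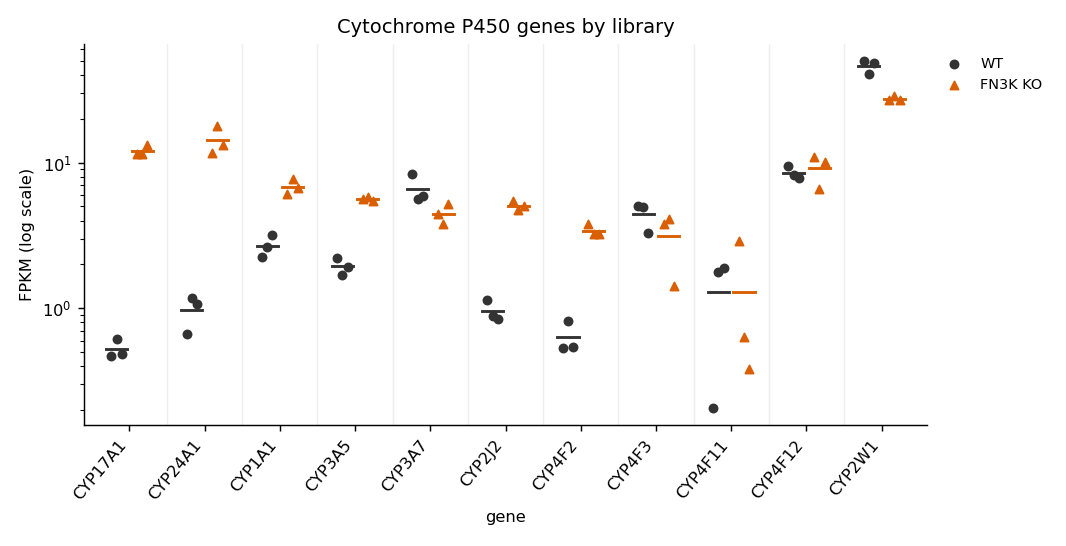
FPKM (y axis, log scale) of the 11 CYP genes (x axis) in each WT library (circles) and each FN3K KO library (triangles), with lines at the group means. CYP17A1 and CYP24A1 sit near or under 1 FPKM in WT and above 11 FPKM in KO, while CYP2W1 falls from a mean of 46.1 to 27.5 FPKM and CYP4F11 scatters within both groups.

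CYP2W1 was the most abundant of the 11 CYP genes by mean and moved the other way. It encodes a P450 found in fetal tissue and in some tumours, and lies on chromosome 7 from 983199 to 989640. CYP2W1 had 49.6, 40.8 and 48.0 FPKM in WT and 26.8, 28.7 and 27.0 FPKM in KO. The 3 KO libraries all lay below the 3 WT libraries. The log2 fold change was −0.72 ± 0.08 (limma BH-adjusted p = 8.4e-05). The call was lost in the model with a library term, where the log2 fold change was −0.75.

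The CYP3A locus on chromosome 7 held 2 listed genes, CYP3A5 from 99648194 to 99680026 and CYP3A7 from 99684957 to 99735196, with 4931 bases between them. CYP3A5 is an adult drug-oxidizing form, while CYP3A7 is the form of fetal liver. CYP3A5 read 2.22, 1.70 and 1.92 FPKM in WT and 5.63, 5.85 and 5.41 FPKM in KO. CYP3A7 read 8.39, 5.62 and 5.86 FPKM in WT and 4.41, 3.78 and 5.19 FPKM in KO. Neither gene's groups overlapped, and they moved in opposite directions: CYP3A7 was the more abundant in every WT library and CYP3A5 in every KO library. The log2 fold change was 1.17 ± 0.16 for CYP3A5 (limma BH-adjusted p = 0.00028) and −0.47 ± 0.17 for CYP3A7 (limma BH-adjusted p = 0.037). CYP3A5 kept its call in every setting. The call of CYP3A7 was lost in 8 of 13 settings, among them the runs without WT replicate 1 (−0.31), WT replicate 3 (−0.54), FN3K KO replicate 1 (−0.47) and FN3K KO replicate 2 (−0.38), so that each of these left 1 lower CYP gene. Of the CYP3A7 transcript's windows of 75 bases, 75.01% also occur in the readthrough transcript CYP3A7-CYP3A51P, and the counting could have split reads between them. CYP3A5 was named here because it neighbours CYP3A7, after its values were seen.

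The stretches before the starts of these CYP genes are shown because the 2 CYP3A neighbours moved in opposite directions and CYP2J2 and CYP2W1 are among the CYP genes with the largest rise and fall. They run 5′ to 3′ on each gene's strand and come from RefSeq (GRCh38.p14). Each covers up to 250 bases before the RefSeq start site, less any bases that GENCODE 29 places inside the gene. Capitals mark matches on either strand to GCGTG, the core of the xenobiotic response element bound by the aryl hydrocarbon receptor, to GTTAAT, a core of sites for the hepatocyte factor HNF1, or to TGACNNNGC, the core of the antioxidant response element.
CYP3A5 (chr7:99680027-99680246, minus strand): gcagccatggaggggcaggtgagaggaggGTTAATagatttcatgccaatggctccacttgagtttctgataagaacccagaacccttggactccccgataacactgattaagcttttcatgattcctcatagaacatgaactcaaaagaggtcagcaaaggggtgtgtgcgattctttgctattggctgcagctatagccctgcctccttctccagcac
CYP3A7 (chr7:99735197-99735446, minus strand): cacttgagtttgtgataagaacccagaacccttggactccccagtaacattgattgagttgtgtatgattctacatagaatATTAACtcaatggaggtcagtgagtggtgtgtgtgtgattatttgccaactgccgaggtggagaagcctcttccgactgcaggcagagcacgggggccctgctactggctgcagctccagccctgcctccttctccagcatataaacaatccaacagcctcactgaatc
CYP2J2 (chr1:59926791-59927023, minus strand): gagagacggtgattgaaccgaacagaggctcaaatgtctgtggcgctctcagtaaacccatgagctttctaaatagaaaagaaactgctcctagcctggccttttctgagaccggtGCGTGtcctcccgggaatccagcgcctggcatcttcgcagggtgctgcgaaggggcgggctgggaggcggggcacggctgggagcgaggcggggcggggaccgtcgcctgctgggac
CYP2W1 (chr7:982931-983180, plus strand): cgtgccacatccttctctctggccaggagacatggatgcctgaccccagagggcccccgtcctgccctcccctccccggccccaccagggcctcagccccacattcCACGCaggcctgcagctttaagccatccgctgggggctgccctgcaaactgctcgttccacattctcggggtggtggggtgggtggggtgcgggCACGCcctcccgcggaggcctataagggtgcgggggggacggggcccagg
Each CYP3A stretch held 1 match to GTTAAT, beginning 221 bases before the start in CYP3A5 and 169 bases before it in CYP3A7, on opposite strands. CYP2J2, which rose, held 1 match to GCGTG, and CYP2W1, which fell, held 2. Promoters of 42 of the 52 genes were in the table, each 300 bases long. GCGTG occurred in 10 of these 42 (23.8%) and in 36.5% of all 35116 promoters, GTTAAT in 5 (11.9%) against 6.88%, and TGACNNNGC in 6 (14.3%) against 13.3%. The 42 are 1 promoter per gene, while the 35116 were not reduced to 1 per gene, so these shares are not strictly alike. A match of so few letters is a description and not a site.

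Conjugating enzymes showed rises in every family. Of the 14 UGT, SULT, GST and NAT8 genes, 11 (78.6%) were higher in KO and 1 (7.14%) was lower (UGT2A3), beside 21.2% and 36.5% of all loci. The other 2 passed neither way, and the median log2 fold change of the 14 was 0.75. NAT8 had a WT mean under 1 FPKM and may be in the table only through its KO level.

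All 4 SULT genes were called higher, beside 21.2% of all loci. Their summed level went from 31.8 ± 1.76 to 72.5 ± 5.65 FPKM (SD, n = 3), a ratio of 2.28. SULT1E1, the estrogen sulfotransferase (chromosome 4 from 69841212 to 69860152), read 0.966, 1.08 and 1.04 FPKM in WT and 6.56, 6.28 and 6.96 FPKM in KO. The log2 fold change of SULT1E1 was 1.90 ± 0.17 (limma BH-adjusted p = 2.5e-05). Of its windows, 21.04% also occur in the annotated gene AC108941.2. SULT1C2, a cytosolic sulfotransferase on chromosome 2, read 2.58, 2.82 and 2.60 FPKM in WT and 6.79, 6.53 and 6.09 FPKM in KO (log2 fold change 1.03 ± 0.13, limma BH-adjusted p = 0.00021). Neither gene's KO values came near its WT values.

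SULT1A1, which sulfates phenols and is the most abundant of the 4 SULT genes, read 20.4, 19.1 and 21.3 FPKM in WT and 37.9, 33.0 and 39.2 FPKM in KO. Its log2 fold change was 0.82 ± 0.08 (limma BH-adjusted p = 4e-05), and it was the 1 SULT gene that did not pass in the linear model with a library term (0.75). Of the SULT1A1 windows, 17.6% also occur in other genes, with 11.2% in SULT1A3. The locus named SULT1A4, a catecholamine sulfotransferase on chromosome 16, read 6.58, 8.10 and 8.90 FPKM in WT and 25.6, 20.4 and 22.4 FPKM in KO. Its log2 fold change was 1.43 ± 0.12 (limma BH-adjusted p = 1.7e-05). SULT1A4 has a near-identical copy, and 98.3% of its windows also occur in SULT1A3, so the value stands for either copy or for both.

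The 3 UGT genes did not move together. UGT2B10, known for the glucuronidation of nicotine and other amines, read 7.83, 7.79 and 7.92 FPKM in WT and 21.4, 17.6 and 19.4 FPKM in KO. UGT2B4, which acts on bile acids and steroids, read 27.3, 26.1 and 27.5 FPKM in WT and 43.7, 35.2 and 41.0 FPKM in KO. UGT2A3, a glucuronosyltransferase of liver and intestine, read 63.2, 64.1 and 57.0 FPKM in WT and 28.9, 28.7 and 24.6 FPKM in KO. The groups were apart in each of the 3, upward in UGT2B10 and UGT2B4 and downward in UGT2A3. The log2 fold changes were 1.21 ± 0.08 for UGT2B10, 0.55 ± 0.08 for UGT2B4 and −1.14 ± 0.08 for UGT2A3 (limma BH-adjusted p = 7.1e-06, 0.00048 and 6e-06). UGT2B4 did not pass in the linear model with a library term (0.43). UGT2A3 was the 1 gene of the 52 that passed the stricter rule downward, and ABCB4 joined it with 0.1 FPKM added or without FN3K KO replicate 1.

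These opposite moves changed the make-up of the family more than its sum. The summed FPKM of the 3 UGT genes was 96.3 ± 3.36 in WT and 86.8 ± 6.47 in KO. UGT2A3 held 63.8% ± 1.90 of that sum in WT and 31.6% ± 3.20 in KO, while UGT2B4 went from 28.0% ± 1.56 to 45.98% ± 2.54 and UGT2B10 from 8.16% ± 0.359 to 22.4% ± 0.704 (SD, n = 3). UGT2A3 was thus first of the 3 in every WT library and UGT2B4 in every KO library. In the CYP family CYP2W1 likewise held 61.7% ± 2.54 of the summed FPKM of the 11 genes in WT and 29.7% ± 0.709 in KO, while the sum went from 74.7 ± 5.41 to 92.7 ± 1.96 FPKM. CYP17A1 and CYP24A1 rose from 0.711% and 1.32% of it to 13.0% and 15.3%. FPKM is a level per length, so that such shares compare transcripts and not reads.

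**Figure D3:**
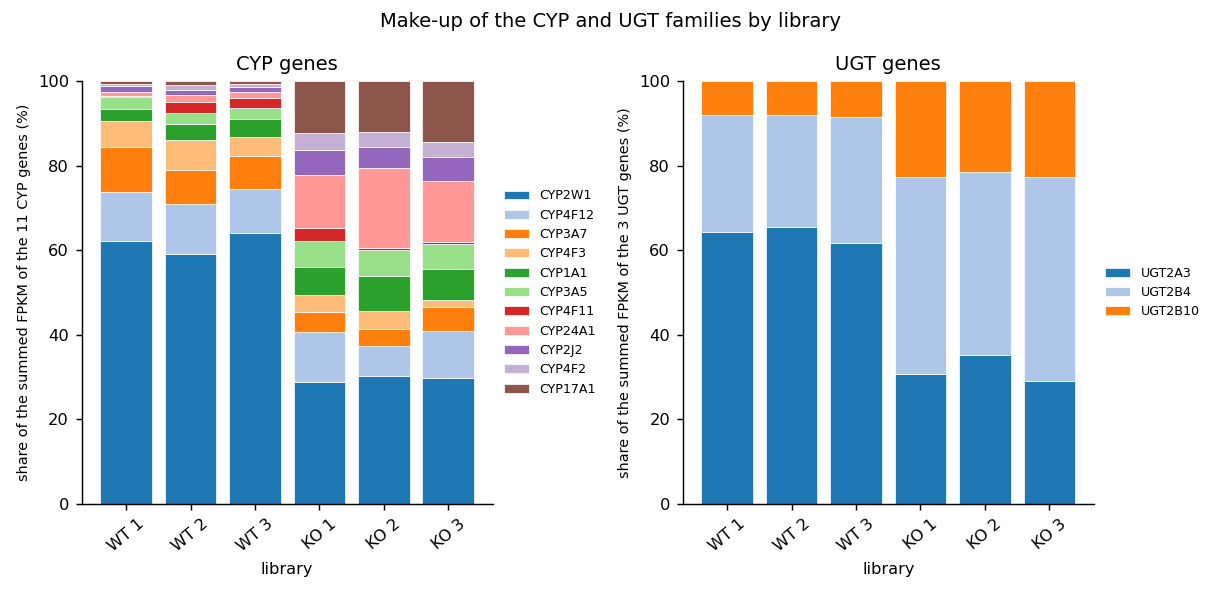
Share (y axis, percent) of each gene in the summed FPKM of the 11 CYP genes (left) and the 3 UGT genes (right), 1 bar for each of the 3 WT and 3 FN3K KO libraries (x axis). CYP2W1 falls from 61.7% to 29.7% on average and UGT2A3 from 63.8% to 31.6%, with every KO bar apart from every WT bar.

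UGT2B10 (68815993 to 68831196, plus strand) and UGT2A3 (68928463 to 68951791, minus strand) lie 97.3 kb apart on chromosome 4, UGT2B4 528 kb beyond UGT2A3 and SULT1E1 315 kb beyond UGT2B4. The stretches before the starts of the pair that moved apart, and of SULT1E1, the SULT gene with the largest rise, are given from the same source and with the same marks.
UGT2B10 (chr4:68815744-68815992, plus strand): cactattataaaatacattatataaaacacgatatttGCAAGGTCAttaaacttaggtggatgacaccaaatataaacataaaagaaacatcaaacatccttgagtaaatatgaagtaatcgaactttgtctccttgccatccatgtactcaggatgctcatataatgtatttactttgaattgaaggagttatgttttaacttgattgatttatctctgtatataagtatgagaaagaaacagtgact
UGT2A3 (chr4:68951805-68952054, minus strand): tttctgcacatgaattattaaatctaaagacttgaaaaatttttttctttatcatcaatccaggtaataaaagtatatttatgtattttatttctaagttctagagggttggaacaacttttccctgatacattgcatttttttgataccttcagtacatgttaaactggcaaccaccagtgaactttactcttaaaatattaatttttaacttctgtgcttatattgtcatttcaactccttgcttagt
SULT1E1 (chr4:69860153-69860395, minus strand): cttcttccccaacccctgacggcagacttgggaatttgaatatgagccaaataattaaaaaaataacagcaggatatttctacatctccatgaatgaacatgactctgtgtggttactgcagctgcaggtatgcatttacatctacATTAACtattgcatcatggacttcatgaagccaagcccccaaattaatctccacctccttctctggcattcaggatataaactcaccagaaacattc
UGT2B10 held 1 match to TGACNNNGC, beginning 213 bases before the start, UGT2A3 held none of the 3 motifs in its 300 bases, and SULT1E1 held 1 match to GTTAAT, beginning 104 bases before the start. Of the UGT2B10 transcript's windows, 17.2% also occur in other genes, against 0.450% for UGT2A3. The gene that shared the most windows with UGT2B10 was UGT2B27P, at 6.89%.

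Of the 6 GST genes, which join glutathione to electrophiles, 4 (66.7%) rose, beside 21.2% of all loci. None fell, beside 36.5% of all loci, and none at an unadjusted p under 0.05 or in the linear model either. In that model 2 rose, since GSTA2 (1.22) and GSTM4 (0.56) no longer passed, and with median centring all 6 did. GSTA2, an alpha-class enzyme typical of liver, read 2.34, 4.26 and 3.34 FPKM in WT and 10.1, 6.60 and 8.01 FPKM in KO, spread widely but apart. Of the GSTA2 windows, 12.1% also occur in GSTA1, which was not listed by name, so reads of GSTA1 may be among them. GSTM4 of the mu class read 6.25, 6.70 and 5.28 FPKM in WT and 10.0, 9.80 and 11.1 FPKM in KO. GSTO1 of the omega class was tight within groups, at 12.2, 13.3 and 12.6 FPKM in WT and 20.01, 20.3 and 19.9 FPKM in KO. The log2 fold changes were 1.11 ± 0.20 for GSTA2, 0.68 ± 0.11 for GSTM4 and 0.62 ± 0.06 for GSTO1 (limma BH-adjusted p = 0.0015, 0.0007 and 5.9e-05), and that of GSTM3 was 0.59 ± 0.12. GSTK1, a mitochondrial and peroxisomal form and the most abundant of the 6, read 24.3, 25.8 and 24.2 FPKM in WT and 27.8, 25.7 and 27.7 FPKM in KO. Its groups overlapped, and the log2 fold change of 0.12 ± 0.06 did not pass (limma BH-adjusted p = 0.12). GSTZ1, an enzyme of tyrosine breakdown, gave 0.29 ± 0.12 (limma BH-adjusted p = 0.070) and passed without WT replicate 2 (0.43), with 75th percentile scaling (0.33) and with median centring (0.36). With median centring GSTK1 passed too (0.19).

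NAT8, which acetylates the cysteine conjugates left by glutathione conjugation, read 0.965, 0.896 and 0.493 FPKM in WT and 9.92, 8.51 and 7.09 FPKM in KO. The WT libraries were again under 1 FPKM. Its log2 fold change was 2.41 ± 0.20 (limma BH-adjusted p = 1.7e-05), and 3.32 with 0.1 FPKM added.

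**Figure D4:**
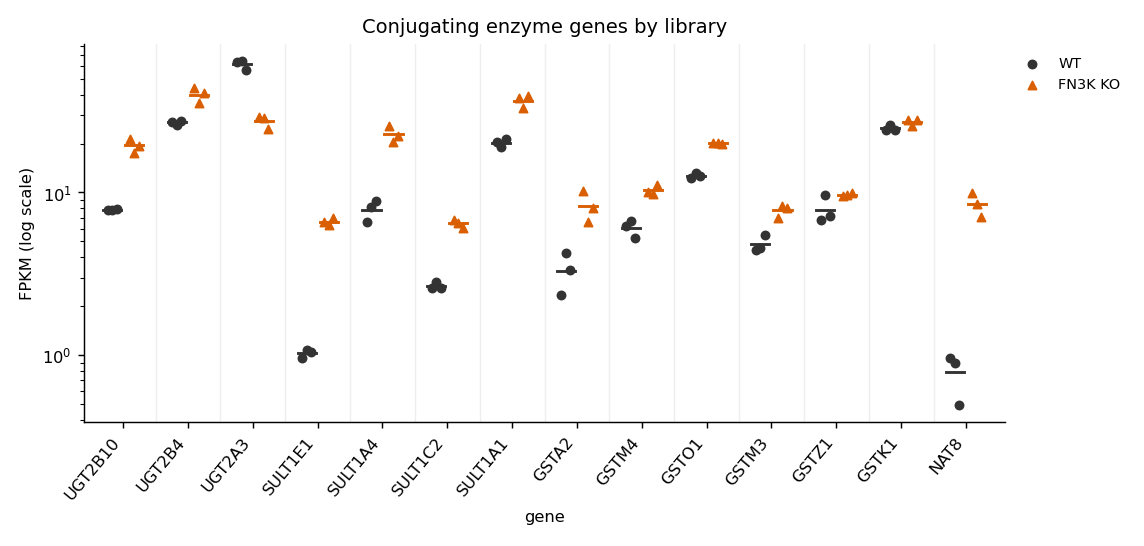
FPKM (y axis, log scale) of the 14 conjugating enzyme genes (x axis) in each WT library (circles) and each FN3K KO library (triangles), with lines at the group means. UGT2A3 is the only gene whose KO libraries lie below its WT libraries, and GSTZ1 and GSTK1 are those closest between the groups.

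The 3 hydrolase genes were all called higher, beside 21.2% of all loci. EPHX1, the microsomal epoxide hydrolase, read 50.8, 42.3 and 43.4 FPKM in WT and 78.1, 74.9 and 82.5 FPKM in KO. CES1, the main carboxylesterase of liver, read 114, 131 and 132 FPKM in WT and 199, 183 and 196 FPKM in KO. CES2, its relative of intestine and liver, read 42.6, 43.5 and 43.0 FPKM in WT and 54.9, 57.5 and 55.2 FPKM in KO. No KO library of these genes fell within the WT range. The log2 fold changes were 0.78 ± 0.08 for EPHX1, 0.62 ± 0.07 for CES1 and 0.37 ± 0.05 for CES2 (limma BH-adjusted p = 4.8e-05, 0.00012 and 0.00031). The call of CES1 was lost in the linear model with a library term (0.71), which left 1 higher CES gene. For CES1, 27.2% of windows also occur in other genes, mainly the pseudogene CES1P1.

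Of the 13 ADH, ALDH and AKR genes, 8 (61.5%) were higher and 1 (7.69%) was lower, beside 21.2% and 36.5% of all loci. In the linear model with a library term, 3 ALDH genes and 1 AKR gene stayed higher, and the ADH gene did not pass (0.15). That model called 606 of the 6357 loci higher and 521 lower. ALDH1A1, which makes retinoic acid from retinaldehyde, read 87.3, 99.9 and 104 FPKM in WT and 194, 191 and 208 FPKM in KO. It was the most abundant of the 8 ALDH genes in all 6 libraries, and its log2 fold change was 1.02 ± 0.07 (limma BH-adjusted p = 8.2e-06). The summed FPKM of the 8 ALDH genes went from 207 ± 10.3 to 331 ± 2.85, of which ALDH1A1 made up 47.0% in WT and 59.7% in KO. ALDH5A1, which oxidizes succinic semialdehyde, read 9.71, 8.79 and 8.85 FPKM in WT and 15.4, 14.6 and 13.7 FPKM in KO. ALDH7A1, an enzyme of lysine breakdown, read 11.2, 11.6 and 10.5 FPKM in WT and 16.2, 16.2 and 14.5 FPKM in KO. Both stood apart, with log2 fold changes of 0.62 ± 0.08 and 0.46 ± 0.08 (limma BH-adjusted p = 0.00022 and 0.001). ALDH1B1 (0.45 ± 0.06) and ALDH9A1 (0.43 ± 0.09) also rose.

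ALDH6A1, which acts on methylmalonate semialdehyde in valine breakdown, was the 1 gene of the 13 that fell. ALDH6A1 read 16.3, 14.7 and 15.6 FPKM in WT and 12.9, 11.6 and 12.1 FPKM in KO, without overlap. Its log2 fold change was −0.32 ± 0.07 (limma BH-adjusted p = 0.0055). The call was lost in the linear model with a library term (−0.42), as were those of ALDH5A1 and ALDH7A1, which left 3 higher and 0 lower of the 8 ALDH genes. ALDH1L1, of folate metabolism, and ALDH4A1, of proline breakdown, overlapped between the groups, with log2 fold changes of 0.10 ± 0.14 and −0.08 ± 0.08.

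AKR1C2, a reductase of steroids and bile acids, read 27.8, 26.1 and 26.4 FPKM in WT and 43.2, 42.4 and 44.2 FPKM in KO. The groups were far apart for their spread (log2 fold change 0.67 ± 0.05, limma BH-adjusted p = 1.5e-05). AKR1C2 belongs to a cluster of close relatives, and its overlap with them was not measured because its transcript was not found in GENCODE 29. AKR7A2, a reductase of aldehydes including that of aflatoxin, read 27.9, 29.8 and 27.8 FPKM in WT and 31.7, 35.7 and 32.4 FPKM in KO. Its log2 fold change of 0.21 ± 0.06 passed (limma BH-adjusted p = 0.020) but not without WT replicate 3 (0.20) or FN3K KO replicate 2 (0.16), which left 1 higher AKR gene, as did the linear model with a library term. AKR1A1, aldehyde reductase and the most abundant by mean of the 4 AKR genes described here, read 39.5, 41.3 and 42.6 FPKM in WT and 46.2, 45.5 and 41.9 FPKM in KO and overlapped (0.11 ± 0.06, limma BH-adjusted p = 0.14). It passed with 75th percentile scaling (0.16) and with median centring (0.18). AKR1B1, aldose reductase, gave 0.05 ± 0.08. ADH4, an alcohol and retinol dehydrogenase of liver, read 30.4, 33.0 and 31.0 FPKM in WT and 38.8, 32.8 and 38.3 FPKM in KO. KO replicate 2 fell within the WT range, and the call (0.21 ± 0.07, limma BH-adjusted p = 0.040) was lost without any WT replicate (0.18, 0.24 and 0.20 without replicates 1, 2 and 3) and without FN3K KO replicate 1 (0.17) or 3 (0.18).

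Among the protein-coding ABC transporter genes, 4 were lower in KO and none was higher apart from ABCC6 under median centring. Of all 11 ABC loci, 36.4% were lower and 18.2% higher, close to the 36.5% and 21.2% of all loci. The lower calls were 3 with median centring or with limma without the trend, and in the linear model with a library term all 4 were lost. ABCB1, the multidrug efflux pump P-glycoprotein, read 27.9, 29.7 and 30.4 FPKM in WT and 25.9, 25.8 and 22.5 FPKM in KO. ABCC1, an efflux pump for glutathione conjugates, read 14.7, 14.2 and 16.1 FPKM in WT and 11.6, 13.2 and 10.0 FPKM in KO. ABCG8, a subunit of the sterol transporter of bile, read 5.19, 5.56 and 4.69 FPKM in WT and 3.00, 3.07 and 2.62 FPKM in KO. The KO libraries lay below the WT libraries in each of the 3. The log2 fold changes were −0.24 ± 0.07 for ABCB1, −0.35 ± 0.10 for ABCC1 and −0.66 ± 0.14 for ABCG8 (limma BH-adjusted p = 0.018, 0.017 and 0.0042).

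ABCB4, which moves phosphatidylcholine into bile and lies 23.2 kb from ABCB1 on chromosome 7, read 4.41, 5.29 and 5.45 FPKM in WT. ABCB4 in KO read 3.76, 3.08 and 1.11 FPKM, and replicate 3 was far below the other libraries. The log2 fold change was −0.81 ± 0.29 (limma BH-adjusted p = 0.037), and it was −0.45 and no longer passed without FN3K KO replicate 3. It also failed without WT replicate 1 (−0.89), 2 (−0.78) or 3 (−0.76) or FN3K KO replicate 2 (−0.93). ABCB1 failed without WT replicate 2 (−0.23) or 3 (−0.21) or FN3K KO replicate 3 (−0.18), and ABCC1 failed without WT replicate 3 (−0.30) or FN3K KO replicate 3 (−0.26). Without WT replicate 2 the count of lower transporters was 2, and without WT replicate 3 or FN3K KO replicate 3 it was 1. ABCG8 kept its call in each of these runs but lost it in the linear model with a library term (−0.68).

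The other transporter genes did not pass. ABCC2, which exports conjugates into bile, read 20.9, 20.2 and 21.4 FPKM in WT and 21.1, 19.4 and 22.7 FPKM in KO, with the groups interleaved (log2 fold change 0.01 ± 0.07, limma BH-adjusted p = 0.90). ABCB6, a porphyrin transporter and the most abundant of the 3 ABCB genes by mean over the 6 libraries, read 28.2, 29.4 and 29.8 FPKM in WT and 28.6, 30.5 and 27.3 FPKM in KO, and 89.1% of its windows also occur in AC068946.2. Its groups overlapped (log2 fold change −0.02 ± 0.06, limma BH-adjusted p = 0.83). ABCC3, ABCC6, ABCC10 and ABCB6 had log2 fold changes from −0.05 to 0.11, and under median centring those of ABCB6 and ABCC10 turned positive and that of ABCC6 passed at 0.18. The pseudogene ABCC6P1 read 15.9, 15.9 and 16.0 FPKM in WT and 20.1, 19.6 and 20.8 FPKM in KO, and ABCC6P2 read 1.38, 1.73 and 1.45 FPKM in WT and 4.39, 2.99 and 4.17 FPKM in KO. Both were apart between the groups, with log2 fold changes of 0.32 ± 0.06 and 0.93 ± 0.21 (limma BH-adjusted p = 0.0018 and 0.0052). Of their windows, 72.3% and 63.1% also occur in other genes, mostly ABCC6 and each other, so reads may have been split among the 3.

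**Figure D5:**
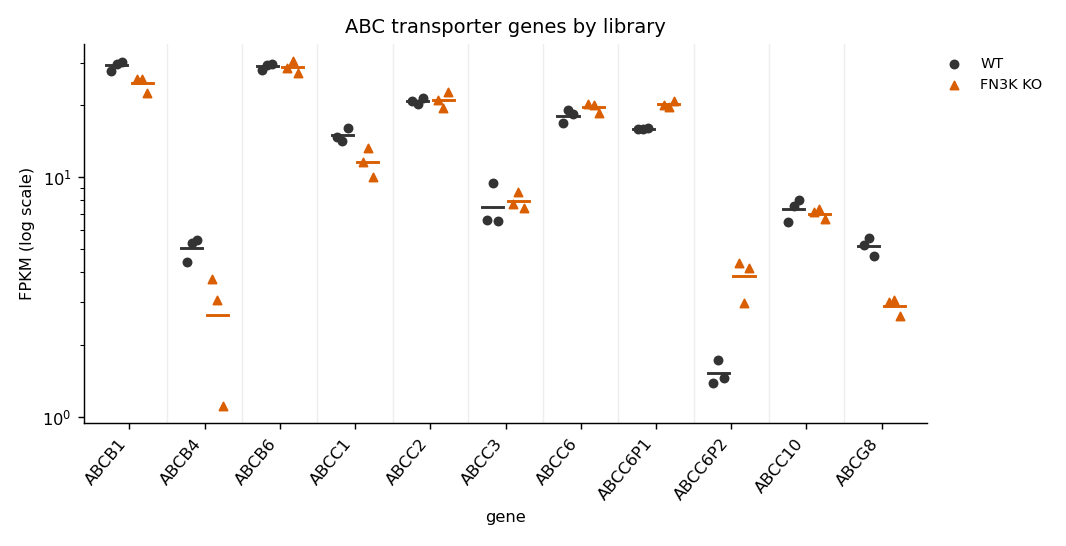
FPKM (y axis, log scale) of the 11 ABC transporter loci (x axis) in each WT library (circles) and each FN3K KO library (triangles), with lines at the group means. The KO libraries lie below the WT libraries in ABCB1, ABCB4, ABCC1 and ABCG8 and above them in the pseudogenes ABCC6P1 and ABCC6P2, and 1 KO library of ABCB4 is at 1.11 FPKM.

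Genes that supply these enzymes or control them were taken from a written list of 66, of which 41 were listed by name. Of the 41, 20 (48.8%) were higher in KO, 12 (29.3%) lower and 9 passed neither way, with a median log2 fold change of 0.21, beside 21.2% and 36.5% of all loci. In the linear model with a library term 7 were higher (CYB5A, CYB5B, GCLM, FOXA1, NQO1, NQO2 and AOX1) and 2 lower (UGP2 and NR1H4). The electron donors split. POR, the oxidoreductase that feeds the microsomal P450 enzymes, read 237, 221 and 235 FPKM in WT and 163, 167 and 179 FPKM in KO, without overlap (log2 fold change −0.44 ± 0.06, limma BH-adjusted p = 0.00031). CYB5B, the cytochrome b5 of the mitochondrial outer membrane, read 29.2, 27.2 and 26.9 FPKM in WT and 62.0, 53.2 and 62.3 FPKM in KO (1.06 ± 0.07, limma BH-adjusted p = 6.8e-06). CYB5A (0.37) and CYB5R3 (0.49) were also higher, so that POR was the 1 of 5 listed donors called lower by limma.

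In heme synthesis, ALAS1, its rate-limiting enzyme in liver, had a log2 fold change of 0.72 ± 0.11, and FECH, the last enzyme, had 0.33 ± 0.12. HMOX1, which degrades heme, had 0.53 ± 0.07. For glutathione, the regulatory subunit GCLM (0.63) and the synthetase GSS (0.31) were higher and the catalytic subunit GCLC (−0.20) was lower. The calls of FECH and GCLC were weak: that of FECH was lost in 5 and that of GCLC in 4 of the 6 runs that each left out 1 library. UGP2, which makes UDP-glucose for the UGT co-substrate, was lower (−0.31), and neither of the 2 listed genes for the sulfate donor, PAPSS1 and SLC35B2, passed by limma (1 of the 2, SLC35B2, had an unadjusted p under 0.05, and it passed with both scalings, with the replicate block and without FN3K KO replicate 3).

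Most of the listed regulators that passed were lower. Of 13 listed, 7 (53.8%) were lower and 2 (15.4%) higher by limma, beside 36.5% and 21.2% of all loci, but in the linear model with a library term only 1 was lower (NR1H4) and 1 higher (FOXA1). Those that fell were CEBPB (−0.68), the bile acid receptor NR1H4 (−0.62), the glucocorticoid receptor NR3C1 (−0.52), FOXA2 (−0.36), HNF4A (−0.35), RXRA (−0.35) and CEBPA (−0.29), and those that rose were FOXA1 (0.63) and NR0B2 (0.21). HNF4A, a master factor of hepatocyte genes, read 45.2, 43.4 and 45.01 FPKM in WT and 35.2, 35.7 and 33.5 FPKM in KO. AHR, the receptor behind the induction of CYP1A1, read 18.2, 20.7 and 21.3 FPKM in WT and 17.1, 19.5 and 18.1 FPKM in KO, overlapping between groups. The genes NR1I2 and NR1I3, which encode the xenobiotic receptors of liver, were not listed by name. Regulator mRNA levels say nothing of the activity of the proteins.

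Of 12 other enzymes of drug metabolism that fall outside the chosen families, 10 were higher and 1 lower by limma, beside 21.2% and 36.5% of all loci. In the linear model with a library term 3 were higher and 0 lower, beside 606 and 521 of the 6357 loci. Those higher by limma included the microsomal glutathione transferase genes MGST1 (0.93) and MGST3 (0.76), the quinone reductase NQO1 (0.80), the aldehyde oxidase AOX1 (0.76) and the thiopurine methyltransferase TPMT (0.69). MAOA, a monoamine oxidase, read 8.81, 11.9 and 10.2 FPKM in WT and 3.58, 4.08 and 2.54 FPKM in KO. It was the 1 that fell (log2 fold change −1.37 ± 0.16, limma BH-adjusted p = 0.00015), while its relative MAOB was higher (0.28 ± 0.08, limma BH-adjusted p = 0.012).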

How the data were processed

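The authors aligned reads of oligo(dT)-enriched mRNA by HISAT2 and used StringTie for assembly and quantification. The values they deposited are FPKM, 1 per assembled locus and library, already scaled for depth and length. The submitters' processing notes name StringTie 2.0.6 and the build GRCh38.p5. The strand setting and the filter on loci are not given in the sources used here. No counts were used here, so depth is unknown and no interval or floor was computed. Summed FPKM lay between 289983 and 314164 per library.

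All 6357 loci were fitted together by limma 3.58.1 under R 4.3.3, with moderated variances that follow a trend on mean level. The response was log2(FPKM + 1) and the contrast FN3K KO minus WT, with Benjamini-Hochberg (BH) adjustment over all loci. No low-value filter was applied. Fold changes are on this scale and understate those of low genes. Full values are given, within each family, for up to 3 members with the largest rise and up to 3 with the largest fall among those called without overlap, and for the most abundant member. Positions, gene types and windows of 75 bases shared between transcripts came from GENCODE 29 (GRCh38). Promoters came from RefSeq (GRCh38.p14). Python 3.11.15 was used otherwise. The members, lists and rules were chosen with earlier results of these data known. The labels number the samples but do not say whether WT and KO plates were paired, and the main fit did not pair them. Deviations of same-numbered WT and KO libraries correlated at 0.0096, 0.0061 and 0.0458 over loci. Those of differently numbered libraries correlated at −0.0454 to 0.0350. The fit was also run on values simulated with a normal spread, which cannot test whether that spread holds for these data. 1 gene of the lists is not reported here. The 13 alternatives were scaling to the 75th percentile, median centring, adding 0.1 in place of 1, keeping only loci with a mean of 1 FPKM or more, limma without the trend, a linear model with a library term after the authors' Ballgown test, a replicate block, and leaving out each of the 6 libraries.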

Additional observations from a re-analysis of the deposited data

How the results depend on the processing

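Of the 38 genes called, 32 kept their call and direction in every alternative other than the linear model with a library term, and 21 kept them in all 13. The limit of a mean of 1 FPKM, 1 of the 13, could remove none of the 52 genes, since all had such a mean. Under the linear model with a library term the count of lower genes was 1, against 8, and over single left-out libraries it ran from 4 to 7. Genes lower under the stricter rule numbered 2, against 1, with a pseudocount of 0.1, and 1 to 2 over left-out libraries. The median log2 fold change of the 52 genes moved to 0.4455 with 75th percentile scaling and 0.4705 with median centring, where the median of all loci went from −0.1386 to −0.0953 and −0.0689. The replicate number as a block gave 30 higher and 8 lower genes and changed no call among the 52, while of the 41 list genes FECH lost its call and SLC35B2 gained one. No called gene reversed. Directions that turned belonged to genes that did not pass the test, and their cause was not tested: ABCB6 (0.0296 with 75th percentile scaling, 0.0533 with centring, 0.0795 with the library term, −0.0578 to 0.021 over left-out libraries), ABCC2 (−0.0403 with the library term, −0.041 to 0.0665), ABCC10 (0.0177 with centring, 0.148 with the library term, −0.1311 to 0.0056), AKR1B1 (−0.0026 to 0.1224), ALDH4A1 (0.0553 with the library term), CYP4F12 (−0.329 with the library term, −0.0468 to 0.2737) and CYP4F11 (0.0214 with centring, 0.4681 with the library term, −0.5041 to 0.2384). All runs with a left-out library have 2 libraries in a group. With FPKM alone, the precision of genes near 1 FPKM cannot be set from reads.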

Other observations

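Other genes of the set also lie side by side. On chromosome 1, GSTM4 and GSTM3, with 59.1 kb between them, were both higher in FN3K KO cells (log2 fold changes 0.68 and 0.59). On chromosome 7, ABCB4 and ABCB1 were both lower. On chromosome 16, ABCC1 and ABCC6 are 5.85 kb apart, and ABCC1 was lower while ABCC6 did not pass (−0.35 and 0.11). In the CYP4F cluster of chromosome 19, CYP4F2 rose (1.44), while CYP4F11, which lies 14.2 kb from it, and CYP4F12 and CYP4F3, with 9.93 kb between them, did not pass. The difference between neighbours was not tested.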
